A study of Mus musculus with 10 samples.

Results

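The genes examined here are 10 regulators of the decision to enter or leave the cell cycle in G1, of 47719 genes measured. They were chosen by symbol: the D-type cyclins Ccnd2 and Ccnd3, their kinases Cdk4 and Cdk6, the INK4 inhibitors Cdkn2c and Cdkn2d, the Cip/Kip inhibitors Cdkn1a and Cdkn1b, and the pocket proteins Rb1 and Rbl2. Each symbol matched 1 Ensembl gene of the mouse build GRCm38. RNA was sequenced from 10 libraries of sorted splenic plasma cells, 5 labelled IgM and 5 labelled IgG1. In both groups the cells descended from transferred, congenically marked donor B cells that carried S1PR2-CreERT2, Ai14 and B1-8germ. S1PR2-CreERT2 is a tamoxifen-inducible Cre driven from a gene active in germinal centre B cells, Ai14 makes tdTomato after Cre has acted, and B1-8 is a heavy chain that gives binding to the hapten NP. The hosts were wild type and received NP-CGG/alum on day 0, with tamoxifen following on days 5 and 6, and tdTomato+ donor plasma cells were sorted on day 10. The mark therefore covers cells whose ancestors expressed the Cre when tamoxifen was given, and the labels used here give no ages. No label states that each library is a separate animal, so the p-values describe the spread among these libraries, which may be technical.

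D-type cyclins rise when a cell receives growth signals, bind CDK4 or CDK6, and direct them to phosphorylate the retinoblastoma family of pocket proteins. Unphosphorylated pocket proteins hold E2F transcription factors in check, and their phosphorylation frees E2F to turn on genes for DNA replication. INK4 proteins bind CDK4 and CDK6 and block their pairing with cyclin D, while Cip/Kip proteins act mainly on cyclin E and cyclin A complexes with CDK2. In B cells, cyclin D2 is induced by antigen receptor signals, cyclin D3 is needed for germinal centre expansion, and the INK4 protein encoded by Cdkn2c is known for its part in the cell cycle exit of differentiating plasma cells. These are properties of the proteins and their phosphorylation, whereas the libraries measured RNA.

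Both D-type cyclins, Cdk4 and both INK4 genes were lower in IgM than in IgG1 plasma cells, by 0.37 to 0.84 on the log2 scale, with no overlap between the groups for any of these 5 genes, as for 26.3% of all genes tested. The pocket protein genes lay on the other side, at means 1.30 and 1.34 times those of IgG1 libraries, and neither passed the test. The Cip/Kip members Cdkn1a and Cdkn1b, and Cdk6, were listed at means of 0.671 to 2.43 FPKM in both groups. Cdkn1a did not pass, and Cdkn1b and Cdk6 were too low to be tested. FPKM, a fragment count scaled to transcript length and library size, is the authors' unit, and differences are IgM minus IgG1 of log2(FPKM + 1), which understates the change of low genes. A gene was tested with limma when its mean over all libraries was at least 1 FPKM, and passed at a Benjamini-Hochberg adjusted p under 0.05 over all 9900 genes tested. Of the 10 members, 8 were tested, 5 were lower in IgM, 0 were higher, and 3 did not pass. Among all tested genes, 18.1% were lower in IgM and 20.2% were higher, 38.3% in either direction. The median difference was -0.54 over the 8 tested members, 6 of which lay below 0, and 0.05 over all tested genes.

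Estimated depth was 26980000 to 31290000 fragments in the IgM libraries and 26510000 to 38580000 in the IgG1 libraries, so that 1 FPKM stood for 26.5 to 38.6 fragments per kilobase. All 6 defining plasma cell markers were expressed in both groups, and 5 were higher in IgM, among them Prdm1, the repressor that directs plasma cell differentiation, at 53.5 FPKM in IgM against 29.2 FPKM in IgG1 libraries. Xbp1, a driver of the secretory programme, was at 2928 FPKM in IgM libraries and 3194 FPKM in IgG1 libraries and was lower in IgM, a call that ended with length and GC trends removed (difference -0.06, against -0.13). The calls of Irf4 and Sdc1 (limma adjusted p = 0.0496 and 0.0468) ended on leaving out singly any of 7 libraries each. For Irf4 these were IgM replicates 1, 2, 3 and 5 and, in the IgG1 group, replicates 2, 3 and 4 (0.0565 to 0.126), and for Sdc1 IgM replicates 1, 2, 3 and 5 and, in the IgG1 group, replicates 2, 3 and 5 (0.0535 to 0.118). The Irf4 difference was 0.24, and 0.05 with length and GC trends removed. Of 8 mature B cell markers, 3 of the 4 tested were higher in IgM, and their summed level was 119 to 143 FPKM in IgM libraries and 79.4 to 97.1 FPKM in IgG1 libraries. Of 7 germinal centre B cell markers, 1 of the 5 tested was higher in IgM, and the sums were 93.6 to 115 FPKM in IgM and 88.3 to 106 FPKM in IgG1 libraries. Of 8 T cell markers 2 were tested, 1 of them lower in IgM, and the sums were 2.60 to 6.50 FPKM in IgM, against 2.11 to 3.81 FPKM in IgG1 libraries. Of 8 myeloid markers 2 were tested and 0 passed, the sums were 0.660 to 3.40 FPKM in IgM, against 1.78 to 4.57 FPKM in IgG1 libraries, and S100a8, S100a9 and Itgax were at 0 throughout. None of 7 erythroid markers reached the filter, and the sums were 0.158 to 5.60 FPKM in IgM, against 0.694 to 4.23 FPKM in IgG1 libraries. Malat1, a nuclear noncoding RNA, was at 3410 FPKM in IgM against 516 FPKM in IgG1 libraries, and the number of genes above 0 was 15121 to 15800 in IgM and 13286 to 13961 in IgG1 libraries. The part of these values in the members' differences was not tested, and in bulk samples fewer cells of a type and less RNA per cell cannot be told apart.

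**Figure D1:**
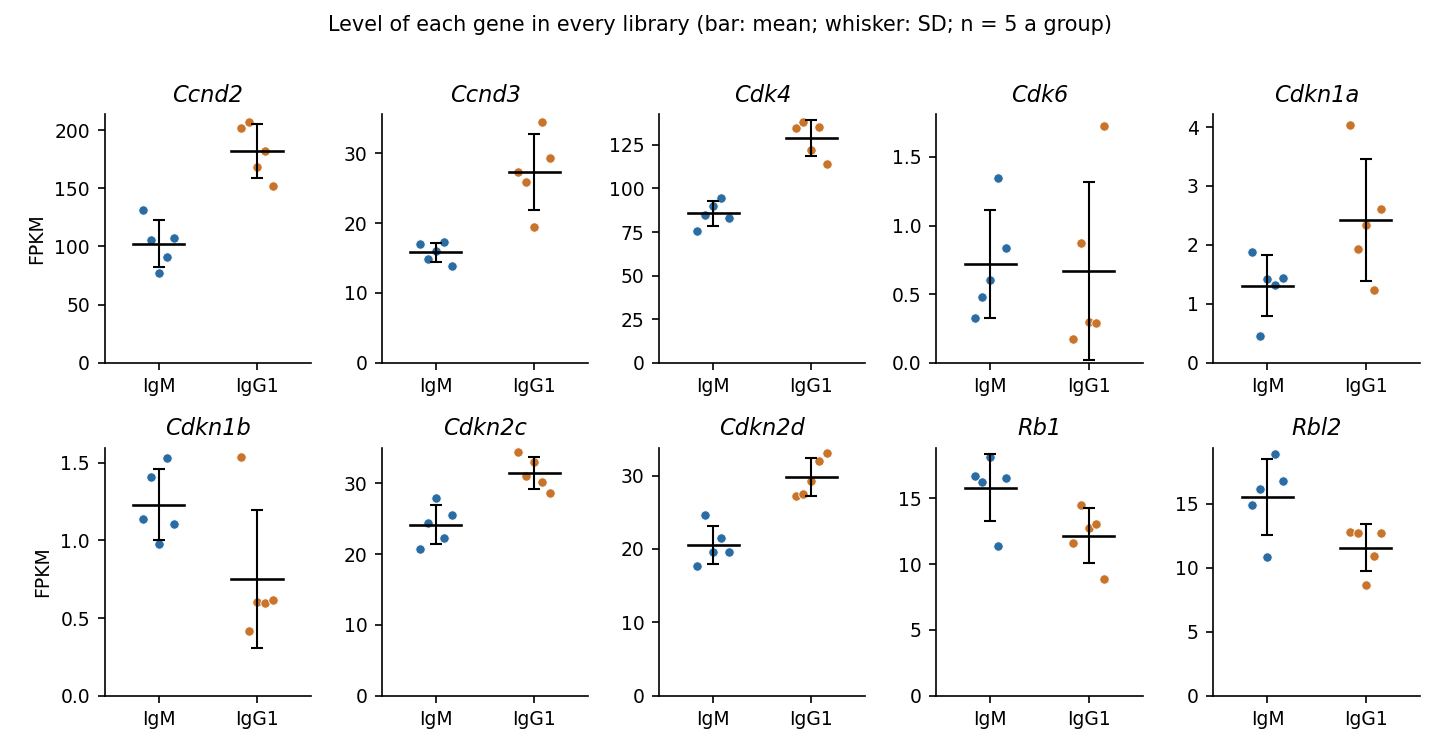
FPKM of the 10 members in each library, on linear axes that start at 0, with IgM libraries on the left and IgG1 libraries on the right of each panel; points are single libraries, bars are group means and whiskers are SD. The points of Ccnd2, Ccnd3, Cdk4, Cdkn2c and Cdkn2d do not overlap between the groups, and those of the other 5 members do.

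Ccnd2 (chr6:127125162-127152193, minus strand) encodes cyclin D2 and had the highest mean of the 10 members in both groups. It was at 131, 105, 77.1, 90.7 and 107 FPKM in the IgM libraries, against 202, 207, 169, 182 and 152 FPKM in the IgG1 libraries. Every IgM library lay below every IgG1 library, and IgM replicate 3 was the lowest of all. The means were 102 ± 20.4 FPKM in IgM libraries, against 182 ± 23.0 FPKM in IgG1 libraries (SD, n = 5 each), a ratio of 0.561. The difference was -0.84 on the log2 scale, with a standard error of 0.13, a 95% confidence interval of -1.13 to -0.55 and a limma adjusted p of 0.000416. Ccnd2 kept this call in all 22 alternatives tried, with differences of -1.09 to -0.74. Of its exon bases, 368 are shared with the antisense gene 9330179D12Rik, at 0.566 FPKM in IgM against 0.248 FPKM in IgG1 libraries, and 372 with the antisense gene Gm43126, at 0.684 FPKM in IgM against 1.07 FPKM in IgG1 libraries.

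Ccnd3 (chr17:47505051-47599691, plus strand) encodes cyclin D3. It was at 16.9, 14.9, 15.99, 17.2 and 13.9 FPKM in the IgM libraries, against 27.4, 25.8, 19.4, 34.5 and 29.3 FPKM in the IgG1 libraries. The IgM libraries lay close together, while the IgG1 libraries were spread widely and their lowest, replicate 3, came nearest to the IgM range. The means were 15.8 ± 1.40 FPKM in IgM libraries, against 27.3 ± 5.49 FPKM in IgG1 libraries (SD, n = 5 each), and the difference was -0.73 with a limma adjusted p of 0.000333. The last 361 exon bases of Ccnd3 are shared with Bysl on the opposite strand, which was at 7.96 FPKM in IgM against 12.3 FPKM in IgG1 libraries, and the library kit does not keep strand, so reads there cannot be assigned to either gene. The processed pseudogene Ccnd3-ps, which matches Ccnd3 closely, was listed at 0 in every library. Ccnd1, the third D-type cyclin gene, was at means of 0.0552 FPKM in IgM libraries and 0.0612 FPKM in IgG1 libraries.

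Both D-type cyclin genes fell, and their shares of the family's transcripts overlapped between the groups. Ccnd2 made up 86.3% ± 2.69 of summed D-cyclin FPKM in IgM libraries, against 86.9% ± 2.74 in IgG1 libraries (SD, n = 5 each). The shares of Ccnd2 ran from 82.8% to 88.6% in IgM and from 83.8% to 89.6% in IgG1 libraries.

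Cdk4 (chr10:127063534-127067920, plus strand) encodes the catalytic partner of the D-type cyclins. It was at 75.6, 84.7, 90.05, 94.6 and 83.3 FPKM in the IgM libraries, against 135, 138, 122, 135 and 114 FPKM in the IgG1 libraries. All IgM libraries were below all IgG1 libraries, and both groups were tight. The means were 85.6 ± 7.19 FPKM in IgM libraries, against 129 ± 10.3 FPKM in IgG1 libraries (SD, n = 5 each), and the difference was -0.59 with a 95% confidence interval of -0.74 to -0.43 and a limma adjusted p of 6.94e-06, the smallest of the 8 tested members. The 3′ end of Cdk4 shares 641 exon bases with Tspan31, a tetraspanin gene on the opposite strand, which ran the other way at 40.6 FPKM in IgM against 23.6 FPKM in IgG1 libraries (difference 0.78, limma adjusted p = 9.69e-05). Without strand the reads in those bases cannot be told apart.

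Cdk6 (chr5:3341485-3531008, plus strand), the paralog of Cdk4, was far lower than Cdk4 in every library. It was at 0.326, 0.482, 0.604, 1.34 and 0.835 FPKM in the IgM libraries, against 0.174, 0.875, 0.294, 0.288 and 1.72 FPKM in the IgG1 libraries. The groups overlapped through most of their range, and the gene was below the filter, so it was not tested. It made up 0.811% ± 0.390 of summed Cdk4 and Cdk6 FPKM in IgM libraries, against 0.540% ± 0.563 in IgG1 libraries (SD, n = 5 each).

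The bases just before the start site of these paralogous kinases are shown because they differ in the E-box CACGTG. MYC and related factors bind these letters. Myc, named after its values were seen, was at 10.5 FPKM in IgM against 17.98 FPKM in IgG1 libraries (difference -0.74, limma adjusted p = 0.00115). Any part of Myc in the level of either kinase was not tested. Both stretches are from RefSeq on GRCm38.p6, plus strand, 5′ to 3′, 250 bases ending at the base before the start site, chr10:127063285-127063534 for Cdk4 and chr5:3343643-3343892 for Cdk6, with each E-box in capitals.
Cdk4: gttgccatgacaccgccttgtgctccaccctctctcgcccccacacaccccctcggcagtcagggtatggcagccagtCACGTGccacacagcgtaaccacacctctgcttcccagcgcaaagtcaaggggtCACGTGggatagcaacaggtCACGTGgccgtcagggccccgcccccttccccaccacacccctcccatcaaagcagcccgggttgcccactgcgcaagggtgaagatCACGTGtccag
Cdk6: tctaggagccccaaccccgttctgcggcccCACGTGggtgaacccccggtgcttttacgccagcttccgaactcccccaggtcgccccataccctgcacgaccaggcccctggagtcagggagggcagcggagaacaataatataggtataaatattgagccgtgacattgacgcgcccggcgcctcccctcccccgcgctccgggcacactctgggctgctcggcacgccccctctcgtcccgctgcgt
The Cdk4 stretch holds 4 E-boxes, whose first bases lie at -172, -118, -98 and -11 from the start site, and the Cdk6 stretch holds 1, at -220. RefSeq windows of 300 bases, 250 before and 50 after a start site, were matched for 8 members, and no window was available for Ccnd2 or Rb1. The palindrome CACGTG reads the same on both strands and occurred in 7.15% of the 32851 such windows, and 8 windows, or 0.0244%, held at least 4. The cut-off of 4 is the count of Cdk4 itself, so that share is a description and no test. Among the other members the E-box occurred in 1 window of Cdkn2c. The E2F letters TTTCCCGC, TTTGGCGC, TTTCGCGC and TTTGCCGC, searched on both strands, occurred in 0 of the 8 members' windows and in 2.26% of all windows, and the CHR letters TTTGAA, bound by the MuvB complex, occurred in that of Rbl2 and in 17.9% of all windows. The FOXO letters TGTTTAC, searched likewise, occurred in 1 window of Ccnd3 and in 3.65% of all windows. A match describes these letters only, and no binding was measured.

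Cdkn2c (chr4:109660876-109667189, minus strand) encodes the INK4 inhibitor p18. It was at 20.7, 24.4, 27.9, 22.2 and 25.6 FPKM in the IgM libraries, against 34.4, 31.1, 33.1, 30.2 and 28.7 FPKM in the IgG1 libraries. The groups did not overlap, but IgM replicate 3 and IgG1 replicate 5 came close to each other. The means were 24.2 ± 2.81 FPKM in IgM libraries, against 31.5 ± 2.26 FPKM in IgG1 libraries (SD, n = 5 each), and the difference was -0.37 with a limma adjusted p of 0.00878. Cdkn2c did not pass once each library's trends along length and GC content had been removed, at a difference of -0.24 and a limma adjusted p of 0.0743.

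Cdkn2d (chr9:21288410-21291407, minus strand) encodes the INK4 inhibitor p19. It was at 17.6, 24.6, 19.5, 21.5 and 19.5 FPKM in the IgM libraries, against 27.3, 27.4, 29.2, 32.0 and 33.04 FPKM in the IgG1 libraries. All IgM libraries lay below the IgG1 range, with IgM replicate 2 the nearest to it. The difference was -0.52, with a 95% confidence interval of -0.75 to -0.29 and a limma adjusted p of 0.00118.

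The other INK4 genes were much lower. Cdkn2b was at a mean of 1.20 FPKM in IgM libraries and 0.190 FPKM in IgG1 libraries, and Cdkn2a was listed at 0 in all IgM libraries and at a mean of 0.0810 FPKM in IgG1 libraries. Neither reached the filter. Cdkn2b made up 2.66% ± 1.08 of summed INK4 FPKM in IgM libraries, against 0.31% ± 0.41 in IgG1 libraries (SD, n = 5 each), with no overlap. Its FPKM values overlapped between the groups, and its share rests on low values. Cdkn2c made up 52.6% ± 3.52 of summed INK4 FPKM in IgM libraries, against 51.2% ± 3.83 in IgG1 libraries, and Cdkn2d 44.7% ± 3.94 in IgM libraries, against 48.4% ± 3.71 in IgG1 libraries (SD, n = 5 each), with overlap for both. The log2 ratio of summed INK4 to summed Cdk4 and Cdk6 FPKM was -0.91 ± 0.12 in IgM and -1.07 ± 0.14 in IgG1 libraries, and the groups overlapped. Inhibitor and kinase transcripts were both lower in IgM, and their ratio differed by 0.16 on the log2 scale.

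**Figure D2:**
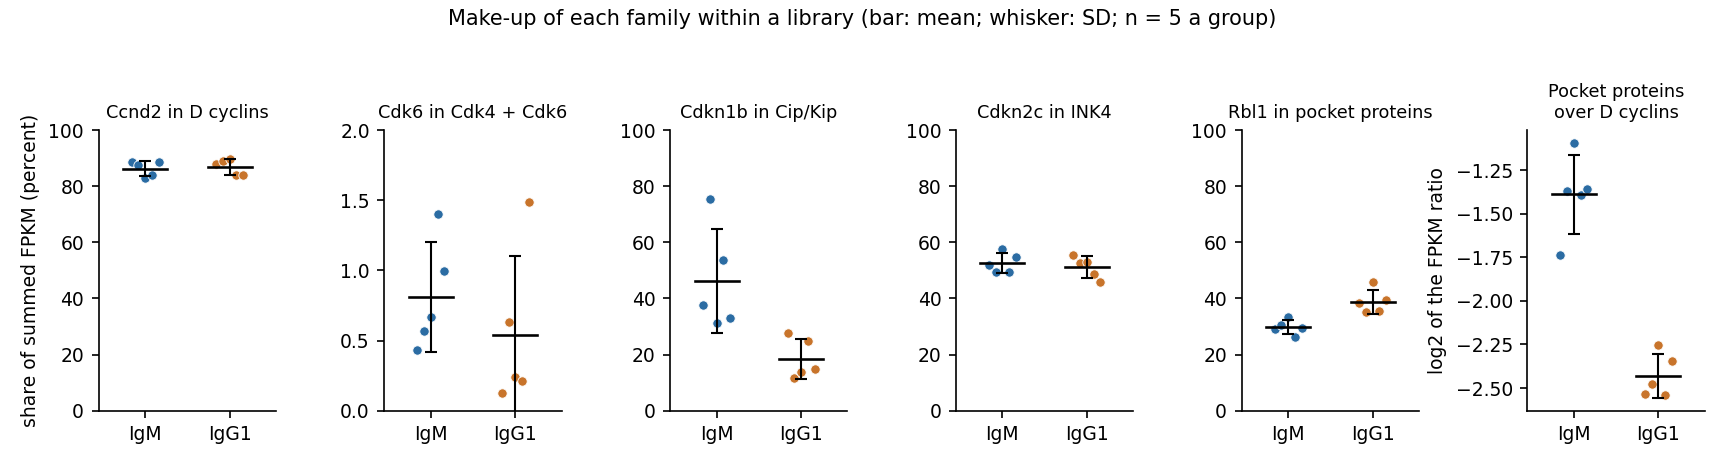
Percent of summed family FPKM held by Ccnd2, Cdk6, Cdkn1b, Cdkn2c and Rbl1, and log2 of pocket protein over D-cyclin FPKM, per library, with IgM libraries on the left and IgG1 libraries on the right of each panel; points are libraries, bars are means and whiskers are SD, cut at 0 for Cdk6 in IgG1. The Ccnd2 share overlaps between the groups, and the log2 ratio of pocket protein to D-cyclin FPKM does not.

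Cdkn1a (chr17:29090976-29100727, plus strand) encodes p21, a Cip/Kip inhibitor that p53 induces after DNA damage. It was at 1.88, 0.460, 1.42, 1.31 and 1.44 FPKM in the IgM libraries, against 4.03, 1.93, 2.34, 1.24 and 2.61 FPKM in the IgG1 libraries. All IgG1 libraries were above the IgM range except replicate 4, which lay inside it. The means were 1.30 ± 0.519 FPKM in IgM libraries, against 2.43 ± 1.04 FPKM in IgG1 libraries (SD, n = 5 each), and the difference of -0.56 did not pass, with a 95% confidence interval of -1.10 to -0.02 and a limma adjusted p of 0.0966. Without IgG1 replicate 4 it was -0.70 and passed, at a limma adjusted p of 0.0456, and under quantile normalization it was -0.80 and passed, at 0.0247. On leaving out any other single library Cdkn1a did not pass, at 0.0768 to 0.247.

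Cdkn1b (chr6:134920401-134925513, plus strand) encodes p27, a Cip/Kip inhibitor of resting cells that is controlled largely through protein degradation. It was at 1.13, 1.41, 0.976, 1.53 and 1.10 FPKM in the IgM libraries, against 1.54, 0.415, 0.600, 0.594 and 0.615 FPKM in the IgG1 libraries. All IgM libraries lay above the IgG1 libraries other than replicate 1, which was the highest of all 10. The mean over all libraries was below the filter, so Cdkn1b was not tested. The difference was 0.37, and 0.52 without IgG1 replicate 1. Cdkn1b made up 46.3% ± 18.5 of summed Cip/Kip FPKM in IgM libraries, against 18.5% ± 7.19 in IgG1 libraries (SD, n = 5 each), with no overlap. Cdkn1a made up 44.4% ± 13.4 in IgM libraries, against 58.9% ± 8.89 in IgG1 libraries (SD, n = 5 each), with overlap. All of these shares rest on a few FPKM, and Cdkn1c, the other gene in the sum, was at 0.299 FPKM in IgM libraries and 0.831 FPKM in IgG1 libraries.

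Rb1 (chr14:73183673-73325822, minus strand) encodes the retinoblastoma protein. It was at 16.7, 16.2, 18.2, 11.4 and 16.6 FPKM in the IgM libraries, against 11.6, 14.5, 12.8, 13.1 and 8.88 FPKM in the IgG1 libraries. The IgM libraries were above all IgG1 libraries except for IgM replicate 4, which lay among them. The means were 15.8 ± 2.57 FPKM in IgM libraries, against 12.2 ± 2.09 FPKM in IgG1 libraries (SD, n = 5 each), and the difference of 0.35 did not pass, with a 95% confidence interval of 0.03 to 0.68 and a limma adjusted p of 0.0769. Without IgM replicate 4 the difference was 0.46 and passed, at a limma adjusted p of 0.0234. On leaving out any other single library Rb1 did not pass, at 0.0550 to 0.194, nor did it under quantile normalization, at 0.207. Rb1 shares 488 exon bases with Rcbtb2 on the opposite strand, which was at 142 FPKM in IgM against 180 FPKM in IgG1 libraries, and 408 with Lpar6, at 2.02 FPKM in IgM against 0.994 FPKM in IgG1 libraries. Rcbtb2 was lower in IgM (difference -0.34, limma adjusted p = 0.000489). Without strand the reads in the shared bases cannot be assigned to either gene.

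Rbl2 (chr8:91070057-91123844, plus strand) encodes p130, the pocket protein that binds E2F4 and the MuvB complex in resting cells. It was at 14.9, 16.2, 10.8, 18.9 and 16.8 FPKM in the IgM libraries, against 12.8, 12.7, 8.64, 10.9 and 12.7 FPKM in the IgG1 libraries. All IgM libraries but replicate 3 were above the IgG1 range, and that replicate lay within it. The means were 15.5 ± 2.98 FPKM in IgM libraries, against 11.6 ± 1.81 FPKM in IgG1 libraries (SD, n = 5 each), and the difference of 0.39 did not pass, with a 95% confidence interval of 0.06 to 0.72 and a limma adjusted p of 0.0601. Without IgM replicate 3 it was 0.50 and passed, at a limma adjusted p of 0.0136. On leaving out any other single library Rbl2 did not pass, at 0.0589 to 0.154, nor did it under quantile normalization, at 0.157. With genes of at least 5 FPKM alone it passed at 0.0486. Rbl2 shares 693 exon bases with Aktip on the opposite strand, at 14.5 FPKM in IgM libraries and 12.7 FPKM in IgG1 libraries, and reads there cannot be assigned without strand.

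Across all tested genes the differences moved with transcript length and GC content. The median difference was 0.21 over the 2469 tested genes with the longest transcripts and -0.15 over the 2470 with the shortest, and 0.27 over the 2469 with the lowest GC content and -0.13 over as many with the highest. The longest Rb1 transcript has 4656 bases and a GC content of 41.2%, and that of Rbl2 has 4925 bases and 47.0%. With both trends removed, the difference was 0.03 for Rb1 (limma adjusted p = 0.897) and 0.18 for Rbl2 (limma adjusted p = 0.412). Under the same correction Cdkn2c alone of the 5 members that passed lost its call.

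Rbl1, which encodes p107, the pocket protein of cycling cells, was at 13.4 FPKM in IgM libraries and 15.1 FPKM in IgG1 libraries, a difference of -0.16 that did not pass (limma adjusted p = 0.349). It was -0.48 and passed with length and GC trends removed (limma adjusted p = 0.00705). Rbl1 made up 29.8% ± 2.59 of summed pocket protein FPKM in IgM libraries, against 38.8% ± 4.27 in IgG1 libraries (SD, n = 5 each), with no overlap. Rb1 made up 35.3% ± 5.07 in IgM libraries, against 31.2% ± 4.20 in IgG1 libraries, and Rbl2 34.9% ± 7.49 in IgM libraries, against 29.9% ± 5.10 in IgG1 libraries (SD, n = 5 each), both with overlap. The log2 ratio of summed pocket protein to summed D-cyclin FPKM was -1.74, -1.37, -1.09, -1.39 and -1.36 in the IgM libraries, against -2.54, -2.48, -2.25, -2.54 and -2.34 in the IgG1 libraries. No IgM library reached the IgG1 range, and the mean ratios were -1.39 ± 0.23 in IgM libraries, against -2.43 ± 0.13 in IgG1 libraries (SD, n = 5 each). That ratio was chosen after its parts had been seen, and it has no test.

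**Figure D3:**
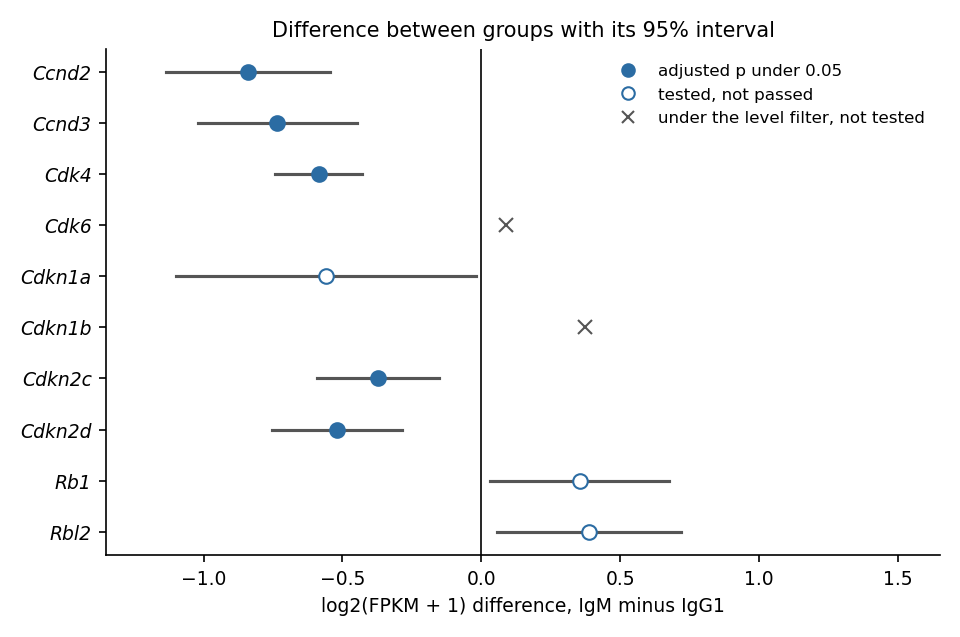
Differences between the groups, IgM minus IgG1 of log2(FPKM + 1), for the members, with 95% confidence intervals for the 8 that were tested and no interval for Cdk6 and Cdkn1b. The 5 members that passed lie below 0, between -0.84 and -0.37, while Rb1 and Rbl2 lie above 0 at 0.35 and 0.39.

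FPKM is scaled for length, so levels can be set in order within a group. In IgM libraries the order of mean FPKM was Ccnd2, Cdk4, Cdkn2c, Cdkn2d, Rb1, Ccnd3, Rbl2, Cdkn1a, Cdkn1b and Cdk6. Neighbours in that order did not overlap only between Cdk4 and Cdkn2c and between Rbl2 and Cdkn1a. In IgG1 libraries Ccnd3 took the fifth place, above Rb1 with no overlap, and Ccnd2 stood above Cdk4 with no overlap, whereas in IgM libraries Ccnd2 was above Cdk4 in 3 of 5 libraries. Mean Ccnd2 FPKM was above 91.0% of tested genes in IgM and 94.6% in IgG1 libraries, and mean Rbl2 FPKM above 58.0% of them in IgM and 52.8% in IgG1 libraries.

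The genes whose levels followed Ccnd2 most closely over the 10 libraries, of 6654 genes averaging 5 FPKM or more that are neither members nor immunoglobulin genes, were Gm20388, Mtch1, Lmnb2, Nomo1 and Efhd2, with Pearson correlations of 0.982, 0.970, 0.966, 0.962 and 0.962. Mtch1, a mitochondrial outer membrane protein gene, was at 37.6 FPKM in IgM against 72.5 FPKM in IgG1 libraries, and Lmnb2, which encodes lamin B2, was at 3.26 FPKM in IgM against 9.29 FPKM in IgG1 libraries. All of these genes were lower in IgM, so the difference between the groups is part of each correlation, and the points share library and depth.

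Of 12 other G1 control genes, 8 were tested, and 2 were lower in IgM, 0 higher and 6 did not pass, beside 18.1% lower and 20.2% higher over all tested genes. Their median difference was -0.18, and -0.11 without IgM replicate 1. Ccne1, the cyclin E that activates CDK2 after the restriction point, was at 32.1 FPKM in IgM against 51.7 FPKM in IgG1 libraries (difference -0.68, limma adjusted p = 2.14e-05). Cdk2 itself was at 18.5 FPKM in IgM against 26.5 FPKM in IgG1 libraries (difference -0.50, limma adjusted p = 0.0121), with overlap between the groups, and did not pass without the filter on low genes (limma adjusted p = 0.0838). With length and GC trends removed, 6 of the 8 were lower in IgM and the median was -0.48.

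The counts of the next 2 lists stand beside 18.1% lower and 20.2% higher in IgM over all tested genes. Of 10 genes for E2F and DP factors, the transcription factors that pocket proteins hold back, 4 were lower in IgM, 0 were higher and 6 did not pass. Their median difference was -0.17, but -0.06 without IgM replicate 5, -0.33 under quantile normalization and -0.40 over the 6 genes averaging 5 FPKM or more. E2f8, a repressor made in S phase, was at 5.11 FPKM in IgM against 10.7 FPKM in IgG1 libraries (difference -0.93, limma adjusted p = 0.000103). Tfdp1, which encodes the DP partner of E2F proteins, was at 46.1 FPKM in IgM against 68.2 FPKM in IgG1 libraries (difference -0.56, limma adjusted p = 4.35e-05). E2f4, the E2F that partners p130, was at 45.7 FPKM in IgM against 58.9 FPKM in IgG1 libraries (difference -0.36, limma adjusted p = 0.00156). E2f1, the fourth, was at 6.61 FPKM in IgM against 9.41 FPKM in IgG1 libraries, with a limma adjusted p of 0.0340. Its call ended on leaving out singly IgM replicates 1, 3 and 5 or, in the IgG1 group, replicates 1, 2, 4 and 5, at limma adjusted p-values of 0.0528 to 0.0961. Of the MuvB core and B-Myb genes, 6 of 7 were tested and 2 were lower in IgM, and their median difference lay near 0, between -0.03 and 0.11 over the alternatives. Mybl2, which encodes B-Myb, was at 9.42 FPKM in IgM against 17.0 FPKM in IgG1 libraries (difference -0.83, limma adjusted p = 0.00112). Rbbp4, the other, was at 106 FPKM in IgM against 124 FPKM in IgG1 libraries, and its call (limma adjusted p = 0.0238) ended on leaving out singly IgM replicates 1, 2 and 5 or, in the IgG1 group, replicates 2 and 4, at 0.0537 to 0.0655.

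Beside the 18.1% of all tested genes that were lower in IgM and the 20.2% that were higher, the cell cycle lists held more lower genes. Of 20 E2F target genes that act in S phase, 18 were lower in IgM, 0 were higher and 2 did not pass. All 20 differences lay below 0, with a median of -0.70. Among them, Mcm5, a subunit of the replicative helicase, was at 37.7 FPKM in IgM against 91.3 FPKM in IgG1 libraries (difference -1.26, limma adjusted p = 2.88e-08). Mcm7, another subunit, was at 38.6 FPKM in IgM against 80.4 FPKM in IgG1 libraries (difference -1.04, limma adjusted p = 1.67e-08). The number lower in IgM was 16 to 19 over the alternatives tried. Of 16 G2 and mitosis genes, 10 were lower in IgM, 1 was higher and 5 did not pass, with a median difference of -0.35. Bub1, a spindle checkpoint kinase gene, was at 7.52 FPKM in IgM against 15.2 FPKM in IgG1 libraries (difference -0.93, limma adjusted p = 0.000118), and Ccna2, which encodes cyclin A2, was at 55.5 FPKM in IgM against 86.5 FPKM in IgG1 libraries (difference -0.63, limma adjusted p = 4.42e-06). The higher gene, Cenpf, a kinetochore protein gene, was at 5.86 FPKM in IgM against 3.61 FPKM in IgG1 libraries. Its call (limma adjusted p = 0.0320) ended on leaving out singly IgM replicates 1, 3 and 5 or, in the IgG1 group, replicates 4 and 5, at 0.0587 to 0.0879. The Cenpf difference was 0.63, but 0.20 with length and GC trends removed (limma adjusted p = 0.530) and 0.30 without both IgG1 replicates 4 and 5 (limma adjusted p = 0.264). Mki67, the proliferation marker, was at 43.2 FPKM in IgM libraries and 36.4 FPKM in IgG1 libraries and did not pass (difference 0.24, limma adjusted p = 0.0625).

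Over all tested genes, 20.2% were higher in IgM and 18.1% were lower. Of 12 genes that control the turnover of G1 regulators, 1 was higher in IgM, 3 were lower and 8 did not pass. Their median difference of -0.03 ran from -0.20 to 0.06 over the alternatives. Fbxw7, the receptor that sends cyclin E and MYC to degradation, was at 21.7 FPKM in IgM against 12.3 FPKM in IgG1 libraries (difference 0.76, limma adjusted p = 0.000501). Cks1b, a cofactor in the degradation of p27, was at 208 FPKM in IgM against 325 FPKM in IgG1 libraries (difference -0.64, limma adjusted p = 1.81e-07). Rbx1, the RING subunit of cullin ligases, was at 88.5 FPKM in IgM against 122 FPKM in IgG1 libraries (difference -0.46, limma adjusted p = 1.47e-05). Usp2, a deubiquitinase of cyclin D1, was at 6.55 FPKM in IgM against 10.3 FPKM in IgG1 libraries, and its call (limma adjusted p = 0.0302) ended on leaving out singly IgM replicates 1 and 5 or, in the IgG1 group, replicates 2 and 5, at 0.0736 to 0.0841. The number higher in IgM was 3 without IgM replicate 3, and 2 without any 1 of IgG1 replicates 1, 2 and 5. It was also 2 with a pseudocount of 5, genes averaging 5 FPKM or more alone, or common-total or quantile scaling. The same number was reached with length and GC trends removed and with the replicate block.

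The p53, FOXO and TGF-beta pathways are known to induce Cip/Kip and INK4 inhibitors. Of 15 genes for p53 and its targets, 13 were tested, and 6 were higher in IgM, 1 lower and 6 did not pass, beside 20.2% higher and 18.1% lower over all tested genes. Their median difference was 0.15, and 0.07 with length and GC trends removed. Sesn1, a stress-induced inhibitor of mTORC1 signalling, was at 12.3 FPKM in IgM against 2.51 FPKM in IgG1 libraries (difference 1.94, limma adjusted p = 2.08e-07), and Trp53inp1, a proapoptotic p53 target, was at 546 FPKM in IgM against 163 FPKM in IgG1 libraries (difference 1.73, limma adjusted p = 2.91e-13). Gadd45a, a stress-response gene, was at 6.24 FPKM in IgM against 2.00 FPKM in IgG1 libraries (difference 1.30, limma adjusted p = 0.00019), while Cdkn1a did not pass and lay lower in IgM. Of 10 FOXO and TGF-beta regulators, 9 were tested, and 3 were higher in IgM, 1 lower and 5 did not pass. Their median difference was 0.35, but 0.22 without IgM replicate 1, 0.22 without IgM replicate 3, 0.14 without IgG1 replicate 4, 0.20 without IgG1 replicate 5 and 0.01 without both IgG1 replicates 4 and 5. With length and GC trends removed the median was 0.20. The number higher was 1 without the filter on low genes, and 1 with the replicate block and length and GC trends removed. Tgfbr2, a TGF-beta receptor gene, was at 7.08 FPKM in IgM against 3.43 FPKM in IgG1 libraries (difference 0.85, limma adjusted p = 0.00177). Foxo3, a FOXO factor that induces Cdkn1b, was at 5.51 FPKM in IgM against 2.90 FPKM in IgG1 libraries (difference 0.76, limma adjusted p = 0.0164) and did not pass under quantile normalization (limma adjusted p = 0.0684). Tgfbr1, also higher, was at 15.2 FPKM in IgM against 10.1 FPKM in IgG1 libraries (difference 0.56, limma adjusted p = 0.01375). With length and GC trends removed the Tgfbr1 difference was 0.20 and did not pass (limma adjusted p = 0.404). For the lower gene of each list the call rested on single libraries: Trp53 was at 26.7 FPKM in IgM against 33.3 FPKM in IgG1 libraries, and its call (limma adjusted p = 0.0362) ended on leaving out singly IgM replicates 1 and 2 or, in the IgG1 group, replicates 2, 4 and 5, at 0.0587 to 0.102. Smad3 was at 4.09 FPKM in IgM against 6.47 FPKM in IgG1 libraries, and its call (limma adjusted p = 0.0389) ended on leaving out singly IgM replicates 1, 3, 4 and 5 or, in the IgG1 group, replicates 2 and 3, at 0.0510 to 0.112.

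**Figure D4:**
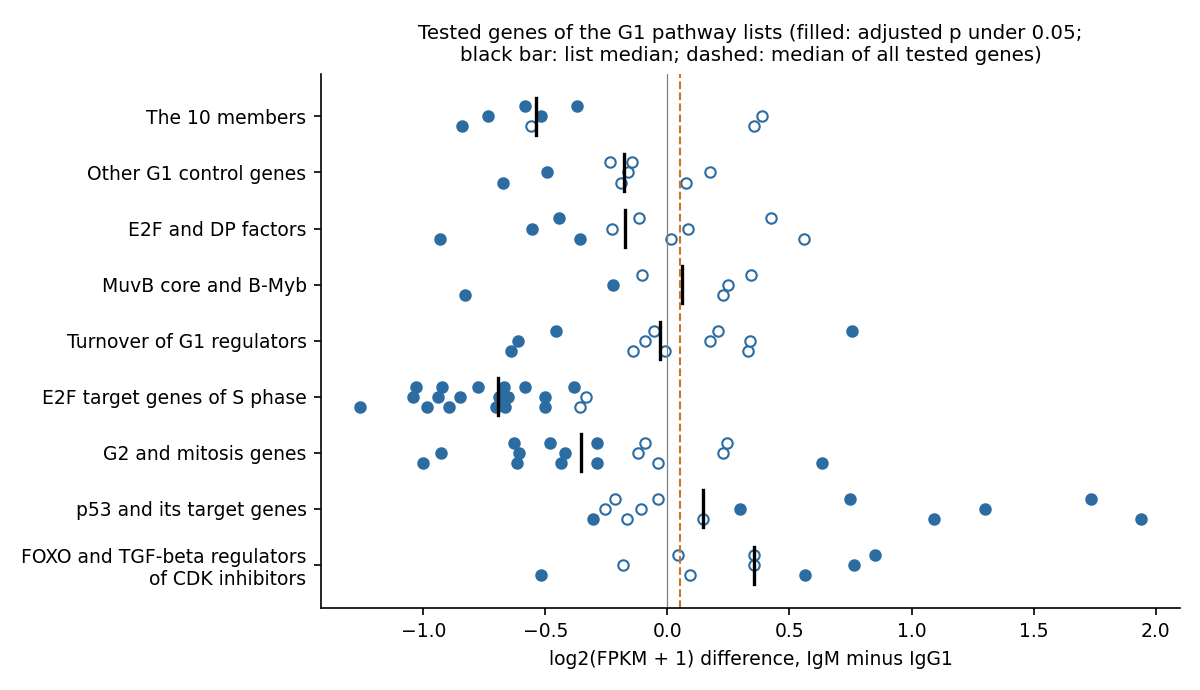
Differences between the groups, IgM minus IgG1 of log2(FPKM + 1), of every tested gene in the members and the other lists, with filled points for genes that passed, a bar at each list's median and a dashed line at the median of all tested genes, 0.05. All 20 E2F target genes of S phase lie below 0, and the median of the p53 list is 0.15.

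**Figure D5:**
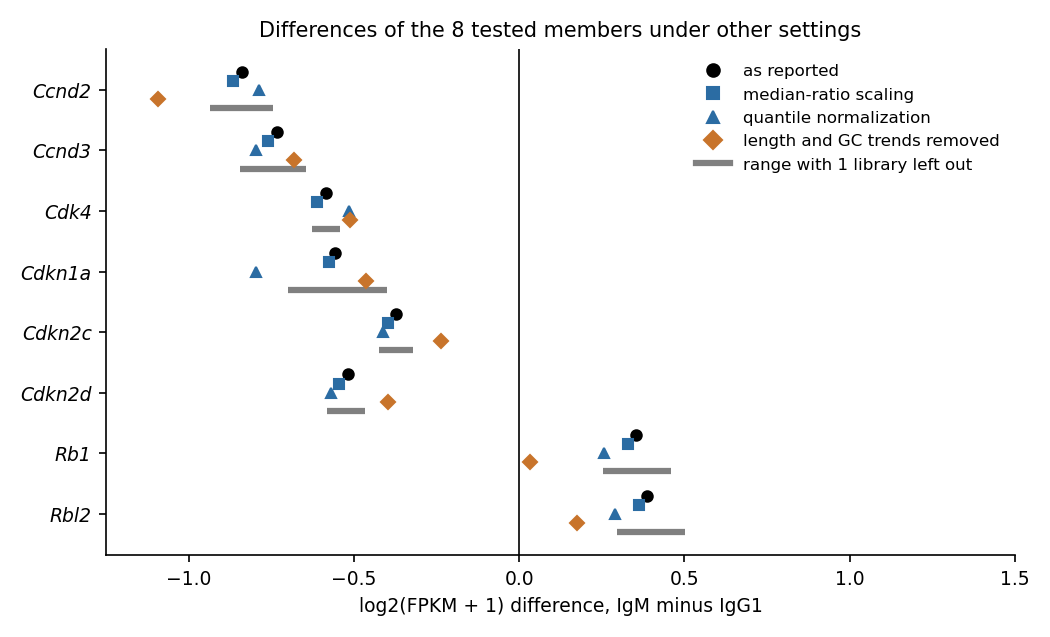
Difference of the 8 tested members, IgM minus IgG1 of log2(FPKM + 1), as reported, with median-ratio scaling, with quantile normalization, with length and GC trends removed, and as a range with 1 library left out. Ccnd2, Ccnd3, Cdk4, Cdkn2c and Cdkn2d stay below 0 in all of these, and Rb1 comes down to 0.03 when length and GC trends are removed.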

How the data were processed

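RNA of 10 sorted plasma cell libraries, 5 IgM and 5 IgG1 by their titles, was extracted with a miRNeasy Micro kit and prepared with SMART-Seq mRNA HT LP reagents, per the labels' protocols. HISAT2 2.1.0, Cufflinks 2.2.1, Cuffdiff and GRCm38 are named in the submitters' processing notes, and what each step did is not given in the sources used here. The deposited unit is FPKM, per the file headers, with no scaling across libraries stated. Summed FPKM ran from 1333417 in IgG1 replicate 2 to 1934268 in IgM replicate 3. Immunoglobulin genes held 62.5% of the sum in the former library and 73.5% in the latter. Totals without immunoglobulin genes lay closer together, at 0.9707 to 1.0456 of their geometric mean.

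Of 47719 identifiers, 47305 matched GENCODE M21. The 9900 genes averaging 1 FPKM or more were tested on log2(FPKM + 1) with limma 3.58.1 (R 4.3.3; two-sided, with the trend and robust options, and the group alone as a term). Alternatives comprised pseudocounts of 0.1 and 5, all genes or only those averaging 5 FPKM or more, median-ratio, common-total and quantile scaling, plain eBayes, removal of length and GC trends (natural splines, 4 degrees of freedom), a replicate block, each library left out, and IgG1 replicates 4 and 5 left out, which an earlier session added after seeing the data. Shares and ratios used linear FPKM and have no test. Depth was estimated from the smallest steps among low FPKM of 1-transcript genes, assuming 200-base fragments, and gives relative precision only. An exact 0 can be a failed estimate. Tables were made with pandas 2.3.3 and numpy 2.4.6 in Python 3.11.15, and plots with matplotlib 3.10.9. No pair of files was identical.

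The members, lists and tests were chosen with earlier results of these data known. Named genes are the members, up to 3 genes per list and direction by size of difference, the 5 genes most like Ccnd2 and the plasma cell markers, of which part are printed. Mki67, Mdm2, Malat1, Neat1, Kcnq1ot1, E2f4 and Myc, the genes overlapping members, and other genes of the members' families were named after their values were seen. The labels give no batch.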

Additional observations from a re-analysis of the deposited data

Results flagged for a closer look

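Of 42 groups of values from 5 libraries, 2 held a library far from the other 4, by its gap to the nearest over the whole range, and chance flags about 1 in 20 groups. Cdkn1b was at 1.54 FPKM in IgG1 replicate 1, while the other IgG1 libraries ran from 0.415 to 0.615 FPKM. Rb1 was at 11.4 FPKM in IgM replicate 4, while the other IgM libraries ran from 16.2 to 18.2 FPKM. Each is the library through which its gene overlaps the other group.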

How the results depend on the processing

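The calls of Ccnd2, Ccnd3, Cdk4 and Cdkn2d were kept in each of 22 alternatives, including each library left out, and that of Cdkn2c in 20. Members lower in IgM numbered 4 to 6 and members higher 0 or 1. With length and GC trends removed, genes higher in IgM numbered 1326, and 1294 with the replicate block added, against 2001; genes lower numbered 2157 and 2112, against 1791, so the share of calls that were higher was 38.1% and 38.0%, against 52.8%. Under quantile normalization the counts were 1510 higher and 2182 lower, or 40.9% higher. These settings took the median of all genes to -0.05 and -0.06, against 0.05, and the members' differences are to be read against that shift. The cause was not tested. With members only in the sum, the Cdkn1a share differed by -26.7 percentage points, against -14.4, the Rb1 share by -0.618, against 4.07, and the log2 ratio of pocket proteins to D cyclins by 1.24, against 1.04, since Cdkn1c, Rbl1 and Ccnd1 then leave the sums.

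The labels do not say whether replicate numbers pair the libraries. Deviations from the group means correlated at -0.0357 to 0.0966 between same-numbered libraries. For 3 of 5 IgM libraries the best-correlated IgG1 library had the same number, so these values do not settle whether the numbers mark pairs. With the replicate block, 1952 genes were higher and 1749 lower, and of the members Rbl2 alone changed its call, at a limma adjusted p of 0.0406. Cdk6 and Cdkn1b, below 1 FPKM on average, did not pass when the filter was dropped (limma adjusted p = 0.828 and 0.289). In that setting all 12 other G1 control genes were tested, and 1 was higher in IgM and 1 lower, against 0 and 2 with the filter. Cdk2, E2f1, Rbbp4, Usp2, Cenpf, Trp53, Foxo3, Tgfbr1, Smad3, Irf4 and Sdc1 lost their calls without the filter (limma adjusted p = 0.0806 to 0.176). E2f1, Trp53, Tgfbr1 and Irf4 did not pass with length and GC trends removed (0.130, 0.0633, 0.404 and 0.726). With plain eBayes, Rbbp4, Usp2, Trp53, Xbp1, Irf4 and Sdc1 did not pass (0.0530 to 0.174).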

Other observations

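Mdm2, the ligase that degrades p53 and is itself induced by it, was at 94.1 ± 6.11 FPKM in IgM libraries, against 43.9 ± 5.79 FPKM in IgG1 libraries (SD, n = 5 each), with no overlap and a difference of 1.09 (limma adjusted p = 3.97e-08). Kcnq1ot1 and Neat1, nuclear noncoding RNAs like Malat1, were at 0.990 and 27.5 FPKM in IgM libraries, against 0.144 and 5.61 FPKM in IgG1 libraries. Neat1 passed (difference 2.15, limma adjusted p = 1.67e-08), and Kcnq1ot1 was below the filter.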
